A study of Mus musculus with 6 samples.

Results

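The Hox genes of the 4 mammalian clusters were followed in presomitic mesoderm, the paired posterior tissue that segments into somites. Members were the genes whose symbol is Hox, a cluster letter from a to d and a paralogue number, where the array held a probe annotated to that gene alone. This gave 30 Hox genes among the 13840 genes with such a probe. The reference gene table lists 39 Hox genes in the clusters, and the 9 others are not analysed here. Each of the 30 genes had 1 such probe. They comprise 9 of 11 genes of cluster A on chromosome 6, 7 of 10 of cluster B on chromosome 11, 8 of 9 of cluster C on chromosome 15 and 6 of 9 of cluster D on chromosome 2.

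The arrays compared embryos at embryonic day 10.5 of 2 genotypes, 3 arrays each. The mutants carry LacZ, the gene of a bacterial enzyme used as a reporter, in place of the coding region of Nrarp, a small ankyrin-repeat protein that feeds back on Notch signalling. The controls were wild-type littermates, and the embryos of both genotypes came from crosses of heterozygous mice, so neither group is a separate line. The deletion is a germline allele with no Cre or tissue promoter, strain background and sex are not given, and 12 presomitic mesoderms were pooled per genotype in a way that the labels do not divide among the arrays. The replicates are therefore not known to be separate embryos, and the p-values cover no more than the variation among these arrays, part or all of which may be technical. As the RNA came from bulk tissue, fewer cells of a type and less RNA per cell cannot be told apart.

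Hox genes encode homeodomain transcription factors that give cells their position along the head-to-tail axis. Within a cluster their physical order mirrors the order in which they are switched on and the order of their expression domains, with low paralogue numbers early and towards the head and high numbers late and towards the tail. In presomitic mesoderm this code is laid down before segmentation and carried into the somites, where it sets the identity of the vertebrae. Cdx proteins, retinoic acid, FGF and Wnt signals and the antagonism of Polycomb and trithorax complexes are textbook regulators of this sequence, and the PBC and MEIS class homeodomain proteins bind DNA together with Hox proteins.

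Promoter sequences were available from RefSeq (GRCm38.p6) for 18 of the 30 genes in 20 windows of 250 bases before an annotated start. Both strands of each window were searched for TTTATG, a core of the Cdx binding site, for TGGGAA, a core of the site of RBPJ, the DNA-binding partner of Notch, and for AGGTCA, the core of the sites of nuclear receptors such as those for retinoic acid. TTTATG or its complement was found in 5 of the 20 windows, those of Hoxa7, Hoxb8, Hoxd3, Hoxd4 and Hoxd11, and in 10.8% of the 32851 windows of all genes. TGGGAA or its complement was found in 4, those of Hoxa6, Hoxa9, Hoxa13 and Hoxd3, against 21.6% of all windows. AGGTCA or its complement was found in 5, those of Hoxb4, Hoxc4, Hoxd3, Hoxd4 and Hoxd10, against 14% of all windows. A match is a description of the letters and not a binding site. The 4 windows below hold TTTATG and belong to genes whose level on the replicate 1 arrays differed 4-fold or more from that on the other arrays (described further on). They were chosen on both traits after those values were seen, so they cannot show a link between the 2, which was not tested. Hoxb8 held TTTATG with a difference under 4-fold, and Hoxa9 and Hoxa13 were past 4-fold with no TTTATG in their windows. Each window below is written 5′ to 3′ on the strand of its gene, and capitals mark the letters searched for.
Hoxa7, chr6:52218574-52218823 (minus strand): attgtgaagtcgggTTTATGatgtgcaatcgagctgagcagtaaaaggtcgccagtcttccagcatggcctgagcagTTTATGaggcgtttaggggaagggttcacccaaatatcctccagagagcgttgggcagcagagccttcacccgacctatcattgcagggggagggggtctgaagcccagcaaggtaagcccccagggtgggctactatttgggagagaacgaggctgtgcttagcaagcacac
Hoxd3, chr2:74711743-74711992 (plus strand): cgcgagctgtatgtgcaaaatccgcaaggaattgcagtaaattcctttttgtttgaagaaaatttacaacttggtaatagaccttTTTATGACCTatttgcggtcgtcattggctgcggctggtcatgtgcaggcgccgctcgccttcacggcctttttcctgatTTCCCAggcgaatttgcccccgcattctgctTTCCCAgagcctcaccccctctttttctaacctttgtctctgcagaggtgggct
Hoxd4, chr2:74721728-74721977 (plus strand): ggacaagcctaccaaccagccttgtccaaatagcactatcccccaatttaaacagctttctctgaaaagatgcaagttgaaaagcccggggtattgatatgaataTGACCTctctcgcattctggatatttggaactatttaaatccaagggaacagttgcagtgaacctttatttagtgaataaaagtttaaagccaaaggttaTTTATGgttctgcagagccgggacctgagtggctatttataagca
Hoxd11, chr2:74679308-74679557 (plus strand): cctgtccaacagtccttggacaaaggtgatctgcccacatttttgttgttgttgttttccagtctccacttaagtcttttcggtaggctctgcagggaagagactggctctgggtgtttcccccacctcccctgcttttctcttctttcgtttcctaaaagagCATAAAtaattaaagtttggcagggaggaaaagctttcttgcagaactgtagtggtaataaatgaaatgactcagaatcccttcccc
In Hoxa7 the letters TTTATG began 236 and 173 bases before the start. In Hoxd3 they began 165 bases before it and overlapped the nuclear receptor core that began at base 161, and RBPJ core letters began 85 and 54 bases before it. In Hoxd4 they began 45 bases before the start, with a nuclear receptor core at 145. In Hoxd11 the complement, CATAAA, began 87 bases before the upstream one of 2 listed starts, and the window of the other start held none of the 3 motifs.

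Intensities had been scaled by the authors, with array medians of 0.981 to 0.993 and array sums of 1019520 to 1125059. The spread of values was wider on the replicate 1 arrays: their 75th percentile was 42.7 (wild type) and 56.9 (knockout) times their 10th, and on the other 4 arrays 12.4 to 16.0 times. Nrarp (probe 919347) read 318, 429 and 448 on wild-type arrays 1, 2 and 3 and 14.3, 42.5 and 23.3 on the knockout arrays, and every knockout array lay below every wild-type array. The log2 difference was -4.03, with an adjusted p of 0.428 in limma without a replicate block and 0.00042 with the replicate number as a block. Of 8 presomitic mesoderm markers, the 7 measured (Lfng was not) lay above the array median on all 6 arrays, and their summed intensity was 1329 to 1670 in wild type and 1417 to 1641 in the knockout. Tbx6 and Dll3 made up most of this sum, which hides differences of single markers between arrays. Hes7, for one, read 54.2, 1.36 and 2.09 in wild type. The blocked fit is quoted below because the replicate 1 arrays of the 2 genotypes moved together. Arrays 2 and 3 matched across numbers about as well as within them, so their pairing is not shown by the data. The main fit planned had no block, and the blocked p-values and intervals depend on this pairing. The 95% intervals are from the blocked fit unless the text says that they are without the block.

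Most Hox genes read above the array median in this tissue, which is no measure of detection, as the background of the probes is not known. Of the 30, 23 lay above the array median on all 6 arrays, against 36.9% of all 33012 probes. These were 8 of 9 genes of paralogue groups 1 to 4, 6 of 9 of groups 5 to 8 and 9 of 12 of groups 9 to 13, so signal above the median came from the early, middle and late parts of the clusters. The 7 others were Hoxa6, Hoxb8, Hoxc5, Hoxc12, Hoxc13, Hoxd4 and Hoxd11, and none of the 30 lay below the median on all 6 arrays. Probes differ in brightness for reasons other than transcript number, so values are compared between arrays and not between genes, and a rank is a gene's percentile within an array.

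**Figure D1:**
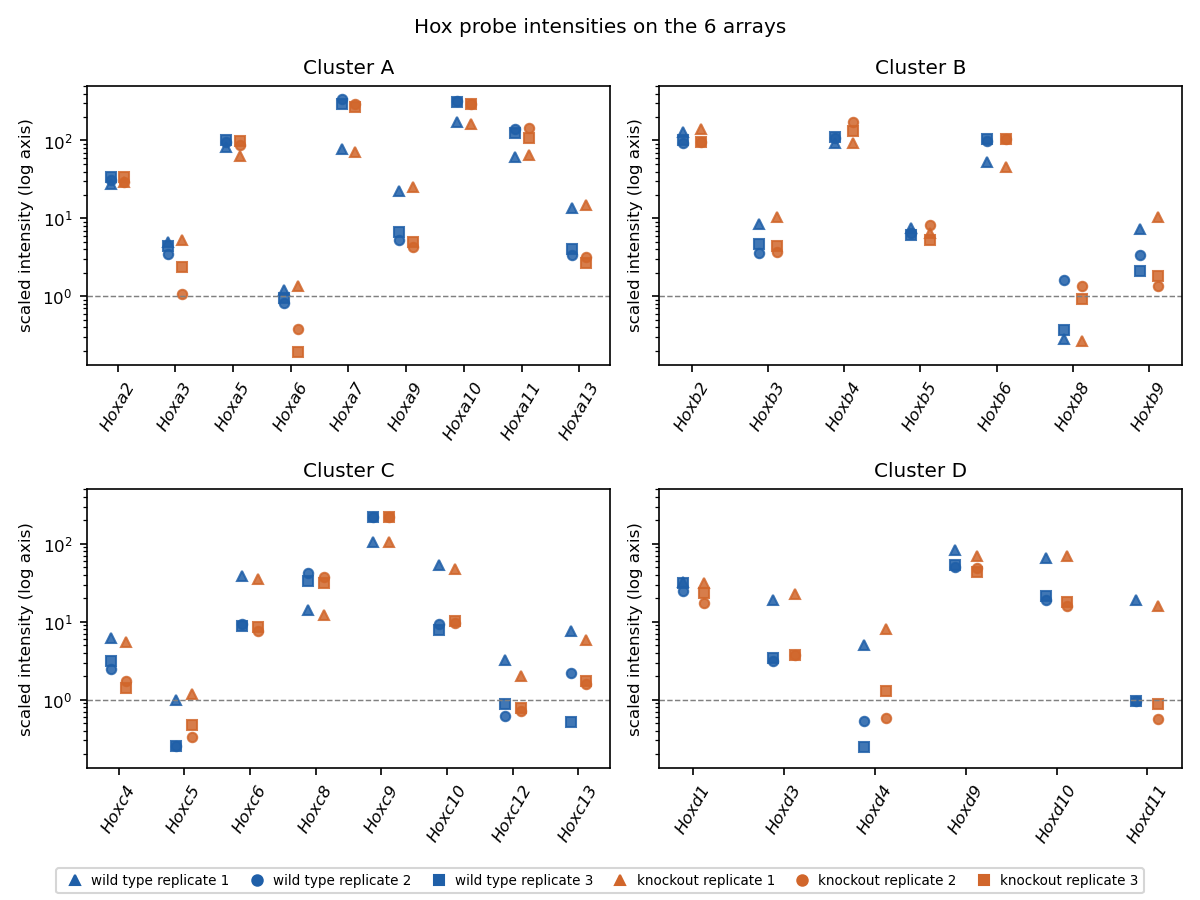
Scaled intensity (log axis) of the 30 Hox genes on each array, in 4 panels for clusters A to D with genes ordered by paralogue number. Colour gives the genotype, the marker shape gives the replicate number and the dashed line marks an intensity of 1, next to the array medians. The replicate 1 points of Hoxd3, Hoxd4 and Hoxd11 lie far above the rest and those of Hoxa7 far below, in both genotypes.

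Cluster A was represented from group 2 to group 13. Hoxa2, which patterns the hindbrain and the second pharyngeal arch, read 27.4 to 34.0 in wild type and 29.1 to 33.9 in the knockout, and its interval of -0.28 to 0.29 (log2) was among the narrower ones. Hoxa3, needed for the thymus and parathyroid, read 4.95, 3.53 and 4.41 in wild type versus 5.27, 1.07 and 2.37 in the knockout. Its knockout arrays 2 and 3 lay below every wild-type array, and its knockout array 1 above them, so the groups overlapped. Hoxa5, which acts at the neck-to-thorax border of the skeleton and in the lung, read 82.7 to 101 and 63.0 to 98.9. Hoxa6, a thoracic member, was dim, with 0.815 to 1.22 and 0.193 to 1.37.

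Of the central and posterior members of cluster A, Hoxa7, a thoracic gene, read 78.5, 344 and 295 in wild type versus 70.7, 295 and 266 in the knockout, at the 92.1 to 98.3 percentile of the arrays. Hoxa10, whose group suppresses ribs in the lumbar region, read 175, 317 and 309.9 in wild type versus 163, 295 and 298 in the knockout. In both genes the replicate 1 array was the low one in each genotype. Hoxa9, of a group that acts in thoracic and lumbar vertebrae, went the other way, with 22.3, 5.26 and 6.61 in wild type versus 25.1, 4.24 and 5.0 in the knockout. Hoxa13, which shapes digits and the hindgut and urogenital end of the body, likewise read 13.6, 3.39 and 4.08 and then 14.8, 3.17 and 2.68. Hoxa11, of the group that forms the sacrum and also the forearm and uterus, read 61.7 to 141 in wild type and 65.5 to 144 in the knockout, low on replicate 1.

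Cluster B was measured from group 2 to group 9. Hoxb2, a hindbrain gene, read 129.7, 93.3 and 102 in wild type versus 142, 95.2 and 94.4 in the knockout. Hoxb4, which takes part in specifying the axis vertebra, read 93.5, 109 and 111 in wild type versus 93.8, 170.4 and 133 in the knockout. Its knockout arrays 2 and 3 were the highest of the 6, while knockout array 1 stood level with wild-type array 1. Hoxb3 read 3.63 to 8.48 and 3.69 to 10.4, and Hoxb5, which helps place the shoulder girdle, read 6.05 to 7.47 and 5.30 to 8.23. Hoxb6, a thoracic gene, read 53.4 to 104 and 45.1 to 104. Hoxb8, also known for its part in microglia and grooming, was dim, with 0.283, 1.60 and 0.373 in wild type versus 0.27, 1.37 and 0.924 in the knockout, above the array median on the replicate 2 arrays alone. Hoxb9, of the group 9 genes that act on ribs, read 7.35, 3.36 and 2.09 in wild type versus 10.4, 1.35 and 1.85 in the knockout.

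Cluster C was measured from group 4 to group 13. Hoxc9, which marks thoracic levels of spinal cord and vertebrae, read 107, 219 and 223 in wild type (183 ± 66.0, SD, n = 3) and 104, 224 and 223 in the knockout (184 ± 69.0, SD, n = 3), so its arrays matched by replicate number almost exactly. Hoxc8, a thoracic and brachial gene, read 14.1, 41.7 and 32.9 in wild type versus 12.2, 38.0 and 31.0 in the knockout. Both genes were low on replicate 1. Hoxc6, a brachial and upper thoracic gene, was high there, with 38.3, 9.48 and 8.76 in wild type versus 35.9, 7.60 and 8.56 in the knockout. Hoxc10, which acts in the lumbar spinal cord and hindlimb, read 54.0, 9.34 and 7.78 and then 47.3, 9.60 and 10.2. Hoxc13, best known from hair and nail, read 7.71, 2.18 and 0.51 in wild type versus 5.79, 1.58 and 1.74 in the knockout, where wild-type array 3 was the sole value under the array median. Hoxc4 read 2.47 to 6.22 and 1.43 to 5.42, Hoxc5 0.253 to 0.989 and 0.337 to 1.19, and Hoxc12 0.621 to 3.27 and 0.724 to 2.03. The highest array of these 3 genes was replicate 1 in each genotype, and Hoxc5 and Hoxc12 passed the array median on the replicate 1 arrays alone.

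Cluster D is known for its late phases of expression in limbs and genitalia beside its axial one. Hoxd9 read 83.2, 49.8 and 53.2 in wild type versus 69.9, 49.5 and 43.5 in the knockout. Hoxd10, a lumbar motor neuron and limb gene, read 66.4, 19.0 and 21.1 in wild type versus 69.0, 15.7 and 17.9 in the knockout. Replicate 1 was again the high array in each genotype. Hoxd11, of the sacral and forearm group, read 19.0, 0.969 and 0.974 in wild type versus 16.1, 0.559 and 0.892 in the knockout. Its signal was thus well above the array median on the replicate 1 arrays and under it on the other 4. Hoxd3, which patterns the first cervical vertebrae, read 19.3, 3.12 and 3.40 in wild type versus 23, 3.71 and 3.80 in the knockout. Hoxd4, which also acts at the top of the neck, read 5.0, 0.531 and 0.246 in wild type versus 8.18, 0.586 and 1.30 in the knockout. Hoxd1, known from pain-sensing neurons, read 24.7 to 32.7 and 17.5 to 31.9.

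No Hox gene was called between the genotypes. With limma and Benjamini-Hochberg adjustment over all probes, 0 of 30 passed without the block, where 0% of all probes passed (0 of 33012), and 0 of 30 with the block, where 0.00606% passed (2 probes, Nrarp and the Notch target Hes5). At an unadjusted p under 0.05 the counts were 0 of 30 without the block, against 0.657% of probes, and 1 of 30 with it, against 3.75%. The groups overlapped in all 30 genes, whereas 2.04% of probes had the knockout arrays above and 1.74% below every wild-type array. The exact permutation test of 3 against 3 arrays cannot go below 0.1 and lay between 0.3 and 1 for these genes. In the knockout, 10 Hox genes had a higher and 20 a lower mean log2 intensity, with a median difference of -0.11, against 16199 and 16813 probes and a median of -0.0063 over the array. With 75th percentile centring 13 were higher and 17 lower. The balance turned without wild-type replicate 1 (17 higher, 13 lower, median 0.11), without knockout replicate 2 (16 and 14, median 0.048) and without knockout replicate 3 (17 and 13, median 0.062).

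The single Hox gene with an unadjusted p under 0.05 was Hoxa3. Its mean was 4.30 ± 0.718 in wild type and 2.90 ± 2.15 in the knockout (SD, n = 3 each), a log2 difference of -0.85 with a standard error of 0.356 and an interval of -1.65 to -0.036. Its limma p was 0.0426 with the block (adjusted p 0.999) and 0.199 without it. The differences within replicates 1, 2 and 3 were 0.09, -1.73 and -0.90, so replicate 1 did not share the direction. On knockout array 2 Hoxa3 read 1.07, next to the array median of 0.983. With 1 added to every intensity before the log2 step, the difference of Hoxa3 was -0.58. The measured genes on either side of it, Hoxa2 and Hoxa5, differed by 0.0026 and -0.19. The largest differences in size were those of 2 dim genes: Hoxd4 at 1.08 (interval -0.053 to 2.22) and Hoxa6 at -1.07 (interval -2.35 to 0.20). In Hoxd4 the difference rested on replicate 3 (2.40, against 0.71 and 0.14), and in Hoxa6 on replicates 2 and 3 (-1.09 and -2.29, against 0.16).

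In the blocked fit the interval of the difference lay within 2-fold either way for 20 of the 30 genes, against 35.1% of all probes. That share covers probes of every level and is not matched to the level of the Hox genes. Hoxc9 had a difference of -0.00053 (interval -0.22 to 0.22), Hoxa10 one of -0.086 (interval -0.30 to 0.13) and Hoxa7 one of -0.17 (interval -0.39 to 0.044). Hoxa11 differed by -0.018 (interval -0.26 to 0.23), Hoxb2 by 0.015 (interval -0.23 to 0.26) and Hoxb6 by -0.063 (interval -0.32 to 0.19). For these 6 genes a shift of 2-fold lay outside the blocked interval. Without the block the intervals were wider, at -0.97 to 0.97 for Hoxc9, -0.89 to 0.72 for Hoxa10 and -0.99 to 0.95 for Hoxa11. They were -0.62 to 0.65 for Hoxb2, -1.83 to 1.48 for Hoxa7 and -1.06 to 0.93 for Hoxb6. A 2-fold shift thus lay inside the unblocked intervals of Hoxa7 and Hoxb6. The 10 genes whose blocked interval reached past 2-fold were Hoxa3, Hoxa6, Hoxb8, Hoxb9, Hoxc4, Hoxc5, Hoxc12, Hoxc13, Hoxd4 and Hoxd11. For them a 2-fold difference was not outside the interval. They had the lowest mean log2 of the 30 genes, from -1.06 (Hoxc5) to 1.73 (Hoxb9).

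**Figure D2:**
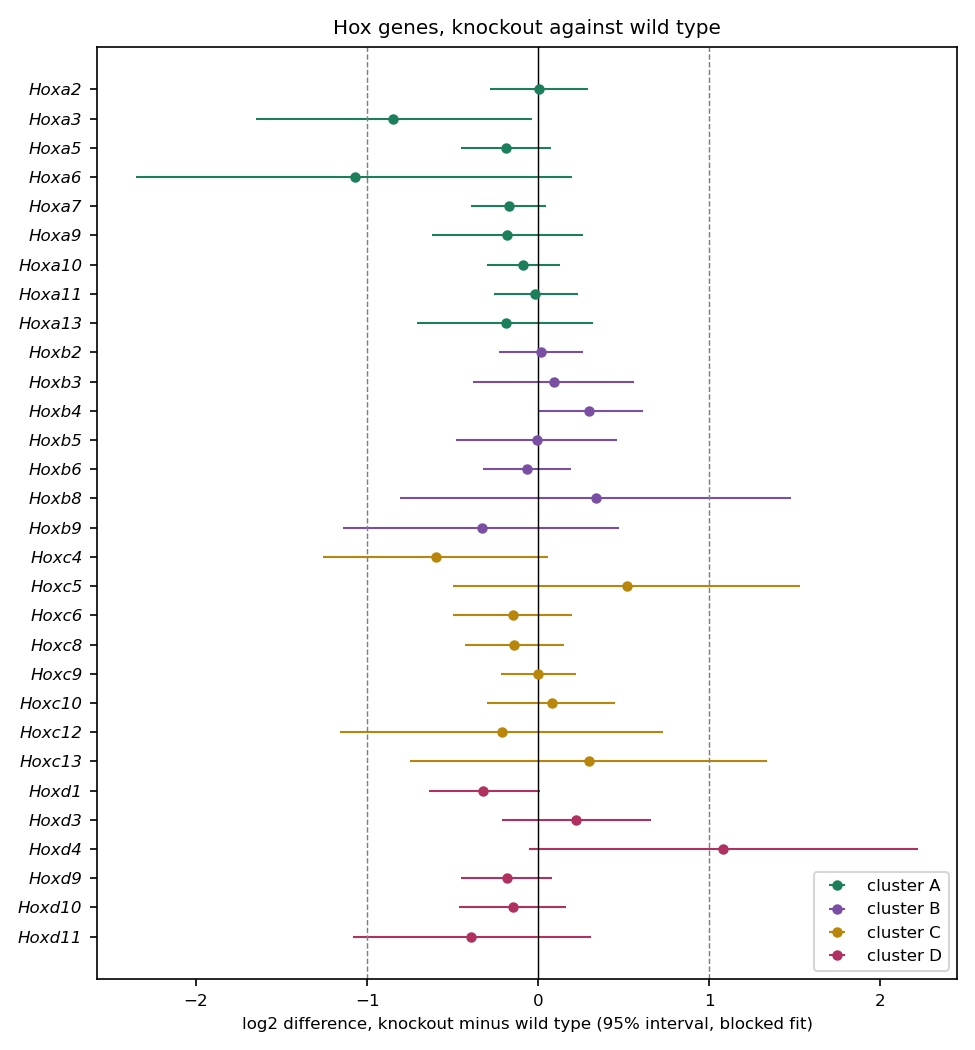
Log2 difference, knockout minus wild type, for the 30 Hox genes ordered by cluster and paralogue number, with the 95% interval from limma with a replicate block, coloured by cluster. The interval of Hoxa3, at -1.65 to -0.036, ends short of 0, and the intervals of Hoxa6 (-2.35 to 0.20) and Hoxd4 (-0.053 to 2.22) are wide.

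Within the replicate numbers, 4 Hox genes were higher in the knockout in all 3 pairs (Hoxb4, Hoxc5, Hoxd3 and Hoxd4), against 13.2% of probes. Lower in all 3 pairs were 9 (Hoxa5, Hoxa7, Hoxa10, Hoxc4, Hoxc6, Hoxc8, Hoxd1, Hoxd9 and Hoxd11), against 10.5%. Both counts hold very small pair differences, such as 0.0043 in Hoxb4 (replicate 1) and -0.026 in Hoxa5 (replicate 3). Of the genes counted, Hoxc5, Hoxd4 and Hoxd11 were not above the array median on every array. The pair differences of Hoxa7 were -0.15, -0.22 and -0.15, and those of Hoxa10 were -0.099, -0.10 and -0.055, sizes that passed no test. Since replicates 2 and 3 can be matched across numbers equally well, a stricter count required the same sign within replicate 1 and both knockout arrays of replicates 2 and 3 beyond both wild-type ones. It left 4 higher genes, against 8.65% of probes, and 7 lower genes (Hoxa7, Hoxa10, Hoxc4, Hoxc6, Hoxd1, Hoxd9 and Hoxd11), against 6.87%. After scaling to the 75th percentile, 6 genes and not 9 were lower in all 3 pairs, against 8.62% of probes. Whether these shares differ from those of other probes was not tested, as the 30 genes share the same 6 arrays.

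Along the order of the clusters, the median difference between genotypes stayed small and was not tested. In groups 1 to 4, 6 genes were higher and 3 lower in the knockout (median 0.015), in groups 5 to 8, 2 were higher and 7 lower (median -0.14), and in groups 9 to 13, 2 were higher and 10 lower (median -0.17). Within replicates 1, 2 and 3 the median of groups 1 to 4 was 0.11, 0.024 and -0.047, that of groups 5 to 8 was -0.15, -0.14 and -0.033, and that of groups 9 to 13 was -0.067, -0.10 and -0.17, against 0.067, 0.0022 and -0.025 over all probes. The first zone thus had the highest median in 2 of the 3 replicates. With both replicate 1 arrays left out the 3 medians were -0.041, -0.083 and -0.11, with quantile normalization 0.0045, -0.13 and -0.14, and with 75th percentile centring 0.067, -0.088 and -0.11. Leaving out 1 array gives replicate 1 a different weight in each genotype and turned at least 1 of the 3 signs each time. The medians were then 0.15, -0.27 and 0.43 without wild-type replicate 1, -0.17, 0.077 and -0.36 without wild-type replicate 2, and -0.021, 0.0073 and -0.43 without wild-type replicate 3. They were -0.36, 0.00055 and -0.68 without knockout replicate 1, 0.10, -0.23 and 0.18 without knockout replicate 2, and 0.11, -0.26 and 0.076 without knockout replicate 3. By cluster the medians were -0.18 in A (1 higher, 8 lower), 0.015 in B (4 and 3), -0.07 in C (3 and 5) and -0.17 in D (2 and 4).

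In replicates 2 and 3 alone the differences of 4 genes had an unadjusted p under 0.05 with the block, and none passed the test over all probes. Hoxa3 differed by -1.31 (limma p 0.00788 with the block, adjusted p 0.782) and Hoxa6 by -1.69 (p 0.0139, adjusted p 0.784). Hoxb4 differed by 0.46 (limma p 0.0115, adjusted p 0.782) and Hoxd1 by -0.46 (p 0.0274, adjusted p 0.812). In these 4 arrays 5.84% of all probes had an unadjusted p under 0.05 with the block and 4.26% without it. Without the block the limma p was 0.0197 for Hoxa3, 0.0129 for Hoxa6, 0.0229 for Hoxb4 and 0.069 for Hoxd1. Hoxd1 was thus under 0.05 only with the block. The block pairs replicates 2 and 3 by number, although they matched across numbers about equally well. Over all 6 arrays Hoxb4 differed by 0.30 (interval -0.00076 to 0.61) and Hoxd1 by -0.32 (interval -0.64 to 0.013). Both blocked intervals included values of either sign.

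While the genotypes overlapped in every Hox gene, the replicate 1 arrays of both genotypes stood apart in most. In 19 of the 30 genes both replicate 1 arrays lay above the other 4, against 25.2% of probes, and in 9 both lay below, against 34.4%, while Hoxa2 and Hoxb5 overlapped. The median difference of replicate 1 from the other arrays was 1.11 (log2) over the Hox genes and -0.33 over all probes. With quantile normalization the counts were 17 above and 10 below, against 20.9% and 23.1% of probes, with medians of 0.43 and -0.12. With 75th percentile centring they were 14 above and 12 below, against 14% and 60.9% of probes, with medians of 0.34 and -1.11. The shares and medians over all probes are not matched to the level of the Hox genes. This difference between arrays was known from earlier results of these data and is given as a description with no test.

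By position, both replicate 1 arrays were above the rest in 7 genes and below in 1 among groups 1 to 4, above in 3 and below in 5 among groups 5 to 8, and above in 9 and below in 3 among groups 9 to 13. By cluster the counts were 4 above and 4 below in A, 3 and 3 in B, 6 and 2 in C, and 6 and 0 in D. A difference of 4-fold or more upward was seen in 9 genes, against 6.87% of probes, and downward in 1, against 2.63%. The 9 genes had a mean log2 of 0.34 to 4.02, and the shares cover probes of every level. At a mean log2 of -2 to -1, 6 probes had a replicate 1 difference of 2 to 2.5 (log2), while 2889 had one of -1.5 to -1. At a mean log2 of 0 to 1, 247 probes had a difference of 2 to 2.5, while 583 had one of 0 to 0.5. Upward differences of 4-fold were thus more common at the level of these genes than the 6.87% over all probes. The measured intensity of Hoxd11 was 21.1-fold higher on replicate 1, by 4.29 (log2) in wild type and 4.52 in the knockout. That of Hoxd4 was 11.4-fold higher (3.79 and 3.23) and that of Hoxd3 6.02-fold higher (2.57 and 2.61). On the other 4 arrays Hoxd11, and Hoxd4 on 3 of them, lay under the array median, where the background of the probe is not known, so these ratios describe the intensities and not the transcript. These are the members of cluster D whose promoters are printed above.

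The other 6 genes past 4-fold upward were Hoxc10 at 5.5-fold, Hoxc13 at 5.05-fold, Hoxa9 at 4.54-fold, Hoxc6 at 4.32-fold, Hoxa13 at 4.30-fold and Hoxb9 at 4.27-fold. Hoxa7 was 4.01-fold lower on replicate 1, by -2.02 in wild type and -1.99 in the knockout, and Hoxc8 was 2.72-fold lower. Hoxc9 was 2.11-fold and Hoxa10 1.81-fold lower there. With quantile normalization 3 genes stayed past 4-fold upward (4.09% of probes), among them Hoxd4 at 3.21 and Hoxd11 at 4.0 on the log2 scale, and with 75th percentile centring 2 did (2.36% of probes). Downward the counts were then 2 (1.28% of probes) and 3 (16.7% of probes). Over the 30 genes the mean level and the replicate 1 difference correlated at r = -0.59 (rho -0.559), and over all 33012 probes at r = 0.346 (rho 0.534). Both quantities come from the same arrays, and genes are not independent replicates, so these are descriptions. The 2 correlations also cover different ranges of level. Hoxa6, Hoxb8 and Hoxc5 had the lowest mean log2 of the 30, at -0.57, -0.69 and -1.06. Among all probes, 2889 had a mean log2 of -2 to -1 and a replicate 1 difference of -1.5 to -1. The opposite signs are thus not a contrast at equal level.

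**Figure D3:**
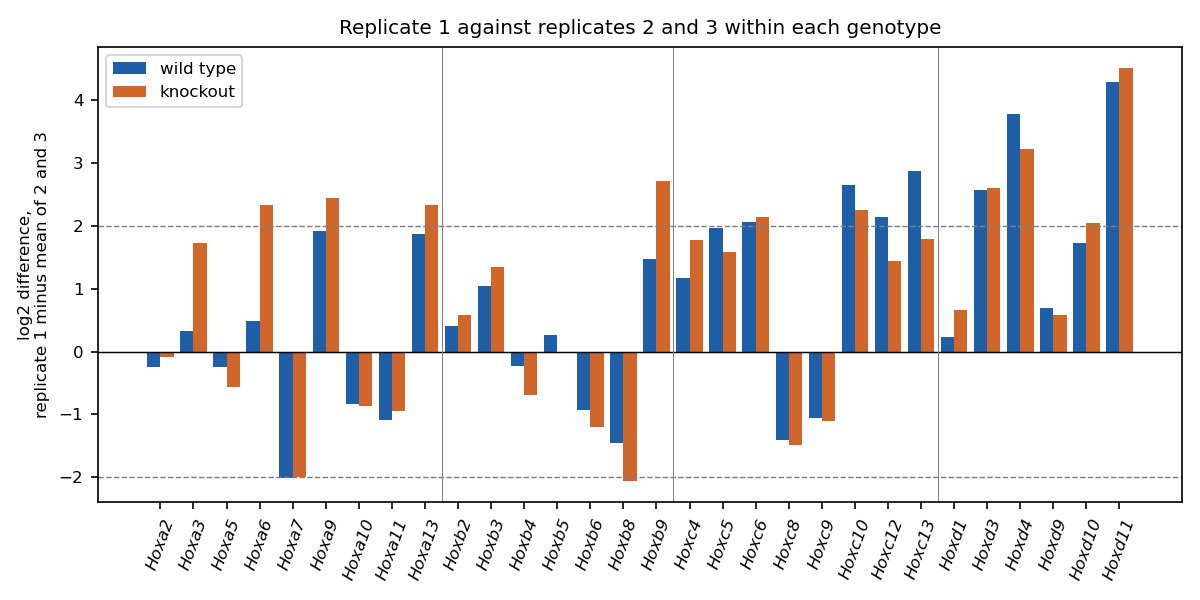
Log2 intensity on the replicate 1 array minus the mean of replicates 2 and 3, for each Hox gene in cluster order, with 1 bar for wild type and 1 for the knockout. The 2 bars of a gene mostly run together: 4.29 and 4.52 in Hoxd11, and -2.02 and -1.99 in Hoxa7.

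**Figure D4:**
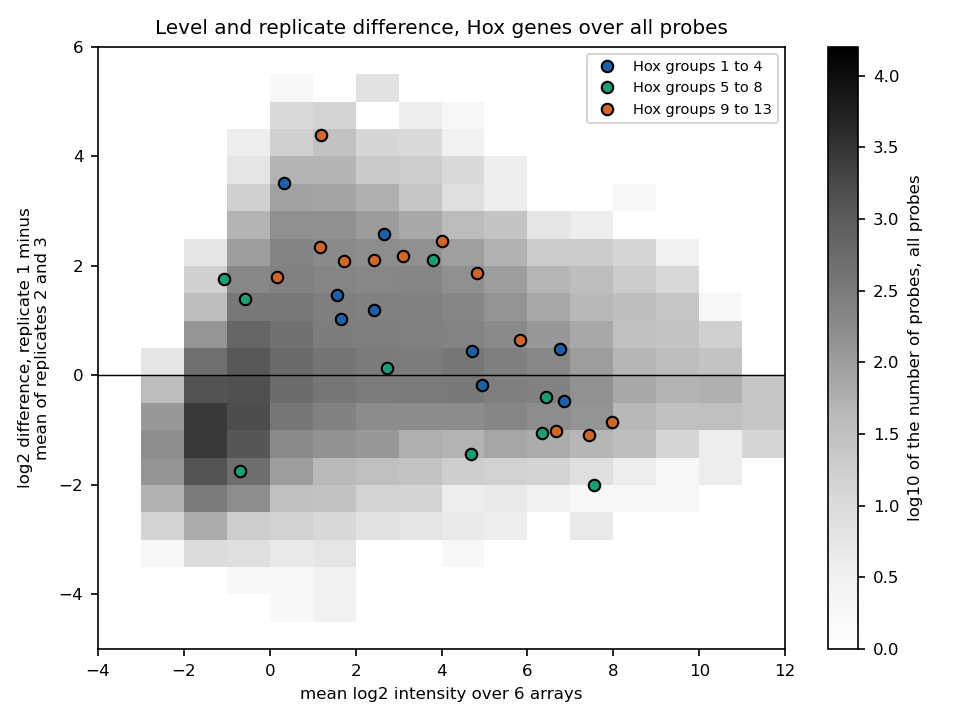
Replicate 1 difference (log2) against mean log2 intensity over 6 arrays for the 30 Hox genes, coloured by paralogue zone, over a grey map of the number of all probes (log10). Hox genes of low mean log2 intensity lie mostly above 0 and those of high mean below, with r = -0.59 over 30 genes. Over all probes, which include many dimmer than the Hox genes, r was 0.346.

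Markers of the dissected tissue and of its neighbours also differed by replicate number, and their part in the Hox pattern was not tested. Of the 7 presomitic markers, both replicate 1 arrays were above the other 4 in 3 and below in 2. Msgn1, a transcription factor of early presomitic cells, read 50.2, 3.59 and 2.80 in wild type versus 50.1, 3.18 and 4.30 in the knockout. Hes7, the oscillating repressor of the segmentation clock, read 54.2, 1.36 and 2.09 and then 64.1, 1.63 and 1.19, while Tbx6, which commits cells to this fate, read 416, 745 and 657 and then 487, 848 and 802. Of 11 neural tube markers, 3 were above and 5 below on replicate 1, 4 lay under the median on all 6 arrays, and the summed intensity was 235, 105 and 143 in wild type versus 240, 104 and 114 in the knockout. Of 9 lateral plate and limb bud markers, 0 were above and 4 below on replicate 1, and their sum was 11.5, 20.1 and 22.6 and then 13.6, 29.7 and 24.0. Gut endoderm markers (8 genes) summed to 212, 138 and 135 and then 224, 118 and 143, with 3 above and 1 below. Surface ectoderm markers (5 genes) summed to 109.9, 67.8 and 79.9 and then 125, 77.5 and 66.1, with 2 above and 0 below.

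Of the remaining lists, the sums of primitive blood and somite markers were lowest on the replicate 1 array of each genotype, and those of endothelium were not. Primitive blood markers (7 genes) summed to 5799 to 7701 in wild type and 4908 to 7748 in the knockout, endothelial markers (10 genes) to 134 to 155 and 119 to 146, and somite markers (10 genes) to 769 to 992 and 908 to 976. By gene, both replicate 1 arrays were above the rest in 3 blood markers and below in 1. The counts were 5 and 3 for endothelium, and 3 and 4 for somite. In blood, Hba-x read 1419, 3438 and 3364 in wild type versus 1472, 3737 and 3349.9 in the knockout. Hbb-y went the other way, with 1915, 929.8 and 1130.3 and then 1456, 1040 and 920.3. Intermediate mesoderm (5 genes), neural crest (3 genes) and notochord markers (2 genes) had sums of 2.93 to 5.78, 4.18 to 6.49 and 5.23 to 15.7 over the 6 arrays, and of these 10 genes the neural crest gene Tfap2b and the notochord and endoderm gene Foxa2 lay above the median on all 6. None of the genes in these 11 marker lists was called between the genotypes in either fit.

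The Hox cofactors were measured through 6 of 9 listed genes. All 6 had a higher mean in the knockout, with a median of 0.21, and 0 of 6 were called in either fit. Without knockout replicate 1 they split into 3 higher and 3 lower (median -0.046). Pbx3, a PBC-class partner of Hox proteins, read 26.7, 26.6 and 27.3 in wild type versus 33.6, 33.2 and 42.1 in the knockout, with no overlap. Its log2 difference was 0.43 with a standard error of 0.132 (limma p 0.0109 with the block, adjusted p 0.999). Meis2 read 142, 430.5 and 427 in wild type versus 209, 484 and 443 in the knockout, a difference of 0.26 (p 0.0533 with the block). Meis1 read 57.5, 139 and 124 and then 69.6, 132 and 150.2, a difference of 0.16. Meis1 and Meis2, which encode partners of posterior as well as anterior Hox proteins, were low on replicate 1. Meis3, Pknox1 and Pknox2 were dim and differed by 0.14, 0.19 and 0.24 between the genotypes. These 3 were 5.05-, 6.15- and 6.16-fold higher on replicate 1. The 6 cofactors thus split there into 3 above, 2 below and Pbx3, which overlapped.

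Of 19 regulators of Hox expression along the axis, 15 were measured (not Gdf11, Lin28b, T and Rara). In the knockout 5 were higher and 10 lower, with a median of -0.03, and 0 of 15 were called. Cdx2, which drives central Hox genes and axis extension, read 89.1, 39.2 and 36.0 in wild type versus 104, 34.0 and 24.8 in the knockout, a difference of -0.18. Cdx4 read 58.8, 68.0 and 62.5 and then 53.9, 48.0 and 61.1, a difference of -0.22. Cdx1 was dim, with 1.21, 0.224 and 0.372 and then 2.47, 0.333 and 0.401, as was Nr6a1, a nuclear receptor of trunk formation, which lay under the array median on every array. The smallest p belonged to Aldh1a2, the enzyme that makes retinoic acid in somites and anterior presomitic mesoderm. It read 24.3, 3.57 and 5.48 in wild type versus 78.5, 9.22 and 8.46 in the knockout, higher in all 3 pairs by 1.23 on average (limma p 0.000357 with the block, adjusted p 0.999), with overlapping groups. Fgf8, a posterior signal that opposes retinoic acid, read 26.1, 8.63 and 7.77 and then 22.4, 4.78 and 7.24, a difference of -0.39 (p 0.0777 with the block).

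The chromatin regulators of Hox clusters showed no common direction. Of 27 Polycomb and trithorax genes 19 were measured, 10 higher and 9 lower in the knockout, with a median of 0.028 and 0 called. Ezh2, the methyltransferase of the Polycomb repressive complex, read 175, 333 and 346 in wild type versus 175, 349.8 and 362 in the knockout. Its partner Suz12 read 22.2, 4.07 and 4.0 and then 27.2, 2.97 and 4.43, so these components of a single complex stood on opposite sides on replicate 1, Ezh2 low and Suz12 high. The smallest p values were those of Gmnn, a regulator of replication that also binds Polycomb proteins, with a difference of 0.19 (p 0.10 in limma with the block), and of Phc3, a Polycomb subunit, with 0.48 (p 0.111).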

How the data were processed

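Total RNA of presomitic mesoderm was amplified into digoxigenin-labelled cRNA and hybridised to 6 one-colour Applied Biosystems arrays, per the labels' protocols. The labels name a human array, while organism and probe annotation are of mouse. The deposited values are the authors' probe intensities on a linear scale, scaled to a median near 1. The tool for scaling, background and flags is not given in the sources used here, and unequal ranges left by it bear on every replicate difference.

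Of 33012 probes, 14411 had 1 gene, 247 several and 18354 were unnamed. The deposited intensities were converted to log2 and tested with limma 3.58.1 (R 4.3.3) on genotype, with an intensity trend, two-sided, adjusted over all probes, at 0.05. Tables were made with Python 3.11.15 and pandas 2.3.3. The fits were tested on simulated data.

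Within replicate numbers, deviations from the group means correlated at 0.757, 0.442 and 0.374, so the numbers were taken to pair the arrays, from the data and not the labels. Across numbers 2 and 3 the values were 0.397 and 0.419, so the pairing rests on replicate 1. Over the 30 Hox genes they were 0.931, 0.855 and 0.636, and 0.794 and 0.719 across.

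The members and lists were chosen with earlier results of these data known. Every Hox gene is named. Values on every array are given for those with an unadjusted p under 0.05, separated groups, a 4-fold replicate 1 difference, or a place among the 2 brightest of a cluster, and for some further genes. From the cofactor, regulator and chromatin lists, the 2 smallest p values and preset regulators are named, and marker lists are given by counts and sums. Names and positions come from RefSeq (GRCm38.p6). Per-sample columns left unused: 0.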

Additional observations from a re-analysis of the deposited data

How the results depend on the processing

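No Hox gene was called under any of the settings run. Without the block 0 probes of the array were called (217 at an unadjusted p under 0.05), with the replicate block 2 (1238), with array weights 1 (3145) and with both replicate 1 arrays left out 2 (1407). The block gave 2 with those arrays left out (1927) and with quantile normalization (1306), and 0 without an intensity trend (1492). The replicate block changed no call of a Hox gene. Combinations with the block and the scalings of the replicate counts were chosen after seeing the data.

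Signs turned for 24 Hox genes when 1 array was left out, which makes replicate 1 a different share of each genotype, and for 8 under other settings. Hoxa3, Hoxa6, Hoxb4, Hoxc4, Hoxd1 and Hoxd4 kept theirs wherever they were tested (Hoxa6 is dropped with the dim probes), while their size with 1 array left out ran from -1.42 to -0.27, -1.85 to -0.44, 0.1 to 0.53, -1.19 to -0.21, -0.53 to -0.1 and 0.0064 to 2.35. Quantile normalization, with or without the block, gave -0.0018 for Hoxa2 and 0.044 for Hoxb5. With 75th percentile centring Hoxa11 was at 0.034, Hoxb5 at 0.044 and Hoxc9 at 0.052. With array weights Hoxb2 was at -0.069, Hoxb6 at 0.046 and Hoxc9 at 0.055. Without both replicate 1 arrays, blocked or not, Hoxa2 was at -0.052, Hoxb2 at -0.041, Hoxb3 at -0.011, Hoxb5 at 0.078, Hoxb6 at 0.027, Hoxc9 at 0.017 and Hoxc12 at 0.024. The cause was not tested.

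With 1 array left out the log2 differences whose sign turned ran over these ranges. In cluster A they were Hoxa10 -0.37 to 0.2, Hoxa11 -0.38 to 0.29, Hoxa13 -0.98 to 0.43, Hoxa2 -0.081 to 0.076, Hoxa5 -0.32 to 0.00055, Hoxa7 -0.85 to 0.49 and Hoxa9 -1 to 0.46. In cluster B they were Hoxb2 -0.18 to 0.15, Hoxb3 -0.36 to 0.44, Hoxb5 -0.17 to 0.15, Hoxb6 -0.37 to 0.34, Hoxb8 -0.15 to 1.1 and Hoxb9 -1.24 to 0.23. In cluster C they were Hoxc10 -0.68 to 0.96, Hoxc12 -0.69 to 0.5, Hoxc13 -0.7 to 1.25, Hoxc5 -0.0091 to 1.17, Hoxc6 -0.87 to 0.54, Hoxc8 -0.61 to 0.36 and Hoxc9 -0.35 to 0.37. In cluster D they were Hoxd10 -0.83 to 0.43, Hoxd11 -1.89 to 1.04, Hoxd3 -0.65 to 1.08 and Hoxd9 -0.38 to 0.047. The medians of groups 1 to 4, 5 to 8 and 9 to 13 ran over -0.36 to 0.15, -0.27 to 0.077 and -0.68 to 0.43, and calls stayed at 0.

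Hox genes 4-fold or more higher on replicate 1 numbered 9, and 3 with quantile normalization, 2 with 75th percentile centring and 4 with an offset of 1. Those 4-fold or more lower numbered 1, and 2, 3 and 0. Dim genes limit precision.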

Other observations

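The genes next to the Hox clusters were looked up as the 3 nearest protein-coding genes on each side and the other genes inside. Of 24 flanking genes 18 were measured, and of 32 other genes inside the clusters 0. In the knockout 9 of the 18 were higher and 9 lower, with a median of -0.0027 (log2), and 0 were called in either limma fit. Evx1, the homeobox gene beside Hoxa13, read 70.9, 75.1 and 77.1 in wild type versus 65.4, 76.7 and 73.2 in the knockout, a difference of -0.054. On replicate 1 it stood 0.15 lower on the log2 scale, with both arrays below the other 4, while Hoxa13 stood 2.10 higher there. Evx2, its counterpart beside the posterior end of cluster D, was dim, with 0.436, 4.01 and 0.591 and then 0.667, 2.00 and 0.456. Hnrnpa3, an RNA-binding protein gene flanking cluster D, read 776, 1145 and 1207 and then 873, 1151 and 1289.

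A further probe is annotated to both Hoxb7 and Hoxb8 and was kept out of the members. It read 8.35, 5.74 and 4.33 in wild type versus 9.53, 4.40 and 3.92 in the knockout, a difference of -0.11 (limma p 0.614 with the block). It was higher on both replicate 1 arrays, whereas the single-gene probe of Hoxb8 was lower there, by 1.75 on the log2 scale.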
